A study of Arabidopsis thaliana with 6 samples.

Results

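The nuclear genes for the subunits of the photosynthetic electron transport chain were examined in light-exposed seedlings of Arabidopsis thaliana. They were chosen by gene identifier and function, with no measured value in the rule, and comprise 35 of the 36917 genes in the table. Of these, 12 encode photosystem II proteins (without PSBS), 13 photosystem I proteins, 7 electron carriers and 3 subunits of the chloroplast ATP synthase. All 35 were in the table and had a mean of at least 10 normalized counts, the filter used for testing. The libraries came from 3 wild-type (genotype WT, accession Col-0) and 3 bbx14-1 samples, the latter also labelled Col-0. All 6 samples shared 3 days of stratification at 4 °C in the dark, a 2 h pulse of white light at 100 µmol photons per square metre and second, 3 days of dark growth on medium without sugar, and 1 day of light, and were taken on day 4. The study asked what depletion of BBX14, a B-box transcription factor gene, does to gene expression in such seedlings; its title also names GLK, whose depletion is not analysed here. The labels do not describe the lesion in bbx14-1 and do not say whether the 3 samples of a group were grown separately, so the p-values refer only to variation among these 6 samples, possibly technical.

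In the thylakoid membrane of the chloroplast, photosystem II takes electrons from water, and plastoquinone, the cytochrome b6f complex and the soluble copper protein plastocyanin carry them to photosystem I. Photosystem I passes them to ferredoxin, from which ferredoxin-NADP reductase makes NADPH, while the ATP synthase uses the proton gradient. The reaction-centre cores are encoded in the plastid, and the genes described here encode other membrane and soluble proteins that are made in the cytosol and imported. When a dark-grown seedling reaches light, these genes are strongly induced as the etioplast becomes a chloroplast.

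The label was checked first on BBX14 itself. BBX14 had 539.9, 683 and 517 normalized counts in the wild-type libraries and 649, 761 and 892 in those labelled bbx14-1, and the groups overlapped. No decrease of its mRNA was seen under the mutant label (0.40 on the log2 scale, limma adjusted p = 0.0726). The gene's count covers all exons and cannot tell an intact from an altered transcript. The group is therefore called the libraries labelled bbx14-1, and all directions are given relative to it.

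The libraries held 20939505 to 32621183 reads on genes, of which plastid-encoded genes took 52.6% to 55.9% in wild type and 49.6% to 56.7% in the libraries labelled bbx14-1. The lowest plastid share, 49.6%, was that of bbx14-1 replicate 3. The least abundant member still had 618 reads in its lowest library. The SD between libraries exceeded the SD expected from counting (the square root of the reads) in all but 1 of 70 member and group values, narrowly for PSB28 in the libraries labelled bbx14-1 (28.6 against 26.9 normalized counts). The 6 mesophyll genes (4 RBCS genes, RCA and CA1) summed to 300929 to 348354 normalized counts in wild type and 309697 to 402674 in the libraries labelled bbx14-1, and 1 of the 6 was called. The seed reserve list moved with the group. All 7 of its 7 genes had a negative fold change, 2 of them called, and their sum was 2241 to 2891 in wild type against 1236 to 1729. Most of that sum was ICL, with 1934, 2414 and 1844 normalized counts in wild type and 1087, 950 and 1420 in the libraries labelled bbx14-1. CRB, OLEO1 and OLEO2 had means of 11.2, 11.8 and 11.6, near the filter of 10. In wild type CRA1 and CRC were highest in replicate 1, as given below. None of the 7 genes was at 0 in a whole group. Root, epidermis and vasculature lists had 0 called genes of 9, 4 and 4 tested (limma; 1, 1 and 0 at an unadjusted p under 0.05, and 1, 0 and 0 called by voom). Their fold changes were nonetheless mostly positive, in 7 of 9, 3 of 4 and 4 of 4 genes, with medians of 0.14, 0.11 and 0.22 on the log2 scale, against 0.20 for the members. Whether a difference in developmental age or in cell makeup takes part in the results below was not tested, and in whole seedlings fewer cells of a type cannot be told apart from less RNA per cell.

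Between the groups, 5 of the 35 members were called higher in the libraries labelled bbx14-1, and 0 lower. A call means a Benjamini-Hochberg adjusted p under 0.05 over all 19003 genes tested with limma on log2(normalized count + 1). Over all genes tested, 2.51% were called higher and 2.14% lower, 4.65% in all. The share of members called higher was 14.3%. The 2 shares are not matched for level. Of the members, 33 ranked among the 1000 highest means, and their SE ran from 0.088 to 0.125. All genes tested include low ones with a larger SE (0.78 for OLEO1), where such small changes cannot be called. The called genes were the photosystem I genes PSAD2, PSAG and PSAH2, the plastocyanin gene PETE1 and the ATP synthase gene ATPD, all with moderate changes below 1.5-fold. At an unadjusted p under 0.05, 15 members were higher and 2 lower, and voom on the recovered reads called 5 higher and 0 lower (voom called 2.49% of all genes higher). The share of all genes at that unadjusted threshold is not given here. Counts at an unadjusted p, for the members and for other lists, therefore have no reference share and are descriptive only.

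Most members, called or not, had a positive fold change. Of the 35 log2 fold changes, 28 were above 0 (80.0%, against 50.5% of all genes tested), and their median was 0.20, against 0.0029 over all genes tested. In 12 members every library labelled bbx14-1 exceeded every wild-type library (34.3%, against 10.4% of all genes tested), and in 2 every one was lower, against 10.6%. Among the 30 members that were not called, 23 were above 0, 7 had every labelled library above wild type, and the median was 0.19. The median of all 35 fell to 0.13 without wild-type replicate 1, to 0.12 without bbx14-1 replicate 3 and to 0.14 under quantile normalization. By complex, the median was 0.20 for photosystem II, 0.20 for photosystem I, 0.23 for the electron carriers and 0.097 for the ATP synthase genes. Differences between complexes were not tested, since genes are not replicates.

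**Figure D1:**
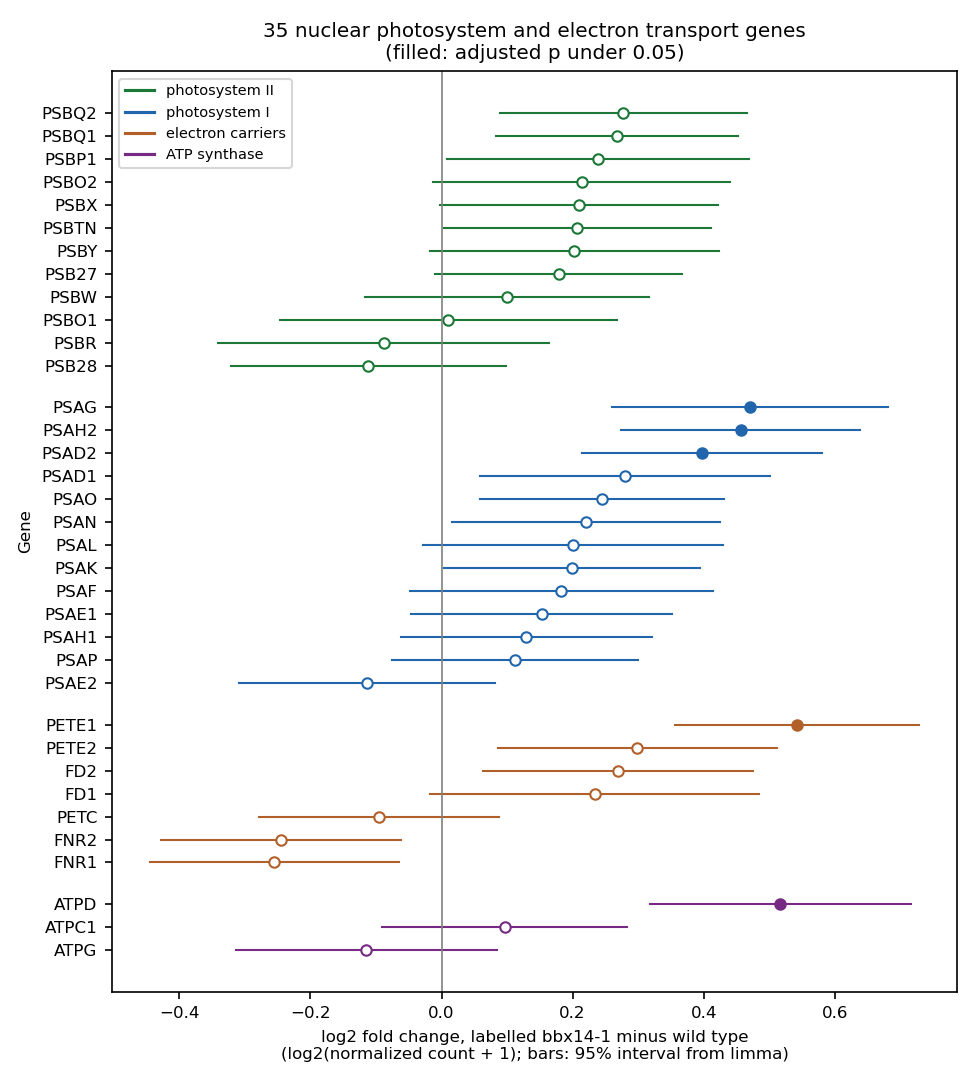
Log2 fold change of each of the 35 members (labelled bbx14-1 minus wild type, horizontal axis) with its 95% interval, grouped by complex; filled points passed the test. The 5 filled points lie between 0.40 and 0.54, and PETC, FNR1 and FNR2 lie below 0 among the electron carriers.

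Photosystem I held 3 of the 5 calls, and 12 of its 13 genes had a positive fold change. PSAH2 (AT1G52230; TAIR10.1 chromosome 1, 19454798 to 19455668, plus strand) encodes subunit H, at the side of photosystem I where mobile light-harvesting complexes dock during state transitions. PSAH2 had 6672, 7116 and 7959.7 normalized counts in wild-type replicates 1, 2 and 3 and 9923, 9925 and 9919 in replicates 1, 2 and 3 labelled bbx14-1. The 3 libraries labelled bbx14-1 all lay above the wild-type range and were closer to each other than counting alone would give, with an SD of 3.11 against 97.5 from counting, so that SD understates the error. Its mean was 7249 ± 654 across the wild-type libraries and 9922 ± 3.11 across the labelled ones (SD, n = 3 per group), a log2 difference of 0.46 (SE 0.088, limma, Benjamini-Hochberg adjusted p = 0.00225). PSAG (AT1G55670; TAIR10.1 chromosome 1, 20802670 to 20803449, minus strand) encodes a membrane subunit of photosystem I. PSAG had 3984, 4637 and 4363 normalized counts in the wild-type libraries and 5570.4, 7223 and 5332 in those labelled bbx14-1. Replicate 2 labelled bbx14-1 stood above the other libraries of its group, and the groups did not overlap. PSAG showed a log2 difference of 0.47 (SE 0.10, limma, Benjamini-Hochberg adjusted p = 0.00642), and the call was lost without bbx14-1 replicate 2 (0.34, limma adjusted p = 0.0519) and without wild-type replicate 1 (limma adjusted p = 0.0705).

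PSAD2 (AT1G03130; TAIR10.1 chromosome 1, 753307 to 754262, minus strand) encodes subunit D, which forms the ferredoxin docking site on the stromal side together with subunit E. PSAD2 had 7941, 8993 and 8713 normalized counts in the wild-type libraries and 11283, 10589 and 11904 in those labelled bbx14-1, with no overlap between the groups. Its mean was 8549 ± 545 across the wild-type libraries and 11259 ± 658 across the labelled ones (SD, n = 3 per group), a log2 difference of 0.40 (SE 0.089, limma, Benjamini-Hochberg adjusted p = 0.00798). Without wild-type replicate 1 this call was lost (0.35, limma adjusted p = 0.0889). Its paralogue PSAD1 (AT4G02770) had 17091, 19593 and 21431 normalized counts in the wild-type libraries and 22852, 21079 and 26638 in those labelled bbx14-1. For PSAD1, bbx14-1 replicate 2 fell below wild-type replicate 3, and the difference of 0.28 did not pass the test (limma adjusted p = 0.160).

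The remaining photosystem I genes did not pass. PSAE2 (AT2G20260), for subunit E, had the lowest fold change of the complex. PSAE2 had 6079, 6342 and 6659 normalized counts in the wild-type libraries and 5745, 5214 and 6769 in those labelled bbx14-1, a log2 difference of -0.11 with a 95% interval of -0.31 to 0.082 (limma adjusted p = 0.611). Its paralogue PSAE1 (AT4G28750) had 5316, 6599 and 7055 normalized counts in the wild-type libraries and 7108, 6922 and 6912 in those labelled bbx14-1 (0.15, limma adjusted p = 0.465), where wild-type replicate 1 stood below the other 5 libraries. PSAH1 (AT3G16140), the paralogue of PSAH2, had 6230.0, 7152 and 6705 normalized counts in the wild-type libraries and 7142, 6665 and 8212 in those labelled bbx14-1 (0.13, limma adjusted p = 0.536), with overlapping groups. PSAL (AT4G12800), which holds the H subunit in place, and PSAO (AT1G08380), a small subunit near it, had no overlap between groups and stood at 0.20 and 0.25 (limma adjusted p = 0.378 and 0.138). PSAF (AT1G31330), part of the plastocyanin docking site, PSAK (AT1G30380), which binds light-harvesting proteins, and PSAN (AT5G64040), a lumenal subunit, were at 0.18, 0.20 and 0.22. PSAP (AT2G46820), at 0.11, is now known as CURT1B, a protein of curved grana margins rather than a photosystem subunit. For PSAF, PSAK, PSAN and PSAP, groups overlapped and the limma adjusted p lay between 0.252 and 0.600.

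**Figure D2:**
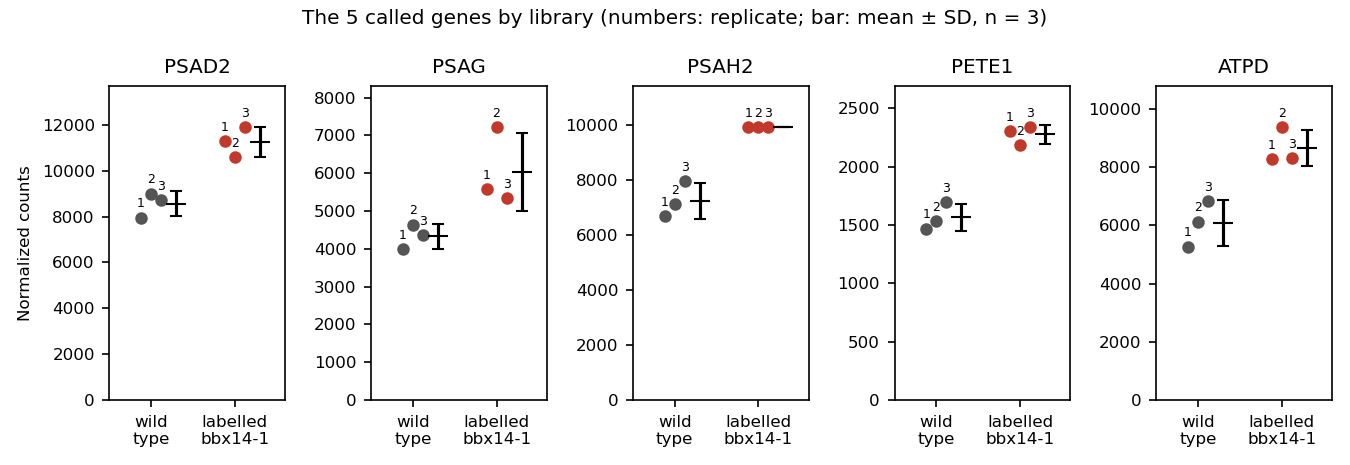
Normalized counts of the 5 called genes in each library (numbers give the replicate), with mean ± SD beside each group of 3; each vertical axis starts at 0. In every panel the 3 libraries labelled bbx14-1 lie above the 3 wild-type libraries, and PSAG replicate 2 stands apart at 7223.

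In photosystem II, 0 of 12 genes were called in either direction by limma, with 4 higher and 0 lower at an unadjusted p under 0.05, and voom called 0. The lumenal proteins of the oxygen-evolving complex stabilise the manganese cluster that splits water, and 2 of its genes, PSBQ1 (AT4G21280) and PSBQ2 (AT4G05180), came closest to a call. PSBQ2 had 12619, 11624 and 13198 normalized counts in the wild-type libraries and 15170.5, 15959 and 14238 in those labelled bbx14-1. PSBQ1 had 9895, 10008 and 10483 normalized counts in the wild-type libraries and 11745, 11549 and 13362 in those labelled bbx14-1. In both genes every library labelled bbx14-1 lay above wild type. The differences were 0.28 and 0.27 on the log2 scale (limma adjusted p = 0.0874 and 0.0929), and PSBQ2 was called without bbx14-1 replicate 3 (0.32, limma adjusted p = 0.0460).

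PSBO1 (AT5G66570), the main gene for the manganese-stabilising protein, was level between the groups. It had 56340.2, 60025 and 57683 normalized counts in the wild-type libraries and 54485, 51678 and 70809.6 in those labelled bbx14-1, a log2 difference of 0.010 with a 95% interval of -0.25 to 0.27. Replicate 3 labelled bbx14-1 was the highest of the 6 libraries and the other 2 of its group were the lowest. The minor gene PSBO2 (AT3G50820) had 9771, 11849.8 and 11074 normalized counts in the wild-type libraries and 10891, 11974 and 15330.0 in those labelled bbx14-1 (0.21, 95% interval -0.012 to 0.44, limma adjusted p = 0.334). PSBP1 (AT1G06680), for the third extrinsic protein, was at 0.24 (95% interval 0.0087 to 0.47, limma adjusted p = 0.275). In PSBO2 and PSBP1 the highest value again came from bbx14-1 replicate 3.

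The other small proteins and the assembly-linked proteins of photosystem II did not pass either. PSBX (AT2G06520), PSBTN (AT3G21055), PSBY (AT1G67740) and PSBW (AT2G30570) were at 0.21, 0.21, 0.20 and 0.10 on the log2 scale, and of these PSBX had no overlap between groups. PSBR (AT1G79040), which helps to attach PSBP, had the highest mean per kilobase of exon among the members and a fold change of -0.088 (95% interval -0.34 to 0.16). PSB27 (AT1G03600), of photosystem II repair and assembly, was at 0.18. PSB28 (AT4G28660), also linked to assembly, had the lowest fold change of the complex and the lowest level of all members. PSB28 had 799, 776 and 877 normalized counts in the wild-type libraries and 763, 724 and 780.3 in those labelled bbx14-1 (-0.11, 95% interval -0.32 to 0.098, limma adjusted p = 0.649), with overlapping groups.

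Among the electron carriers only PETE1 (AT1G76100; TAIR10.1 chromosome 1, 28553883 to 28554930, minus strand) passed the test, 1 of 7. Among these 7, genes for the mobile proteins plastocyanin and ferredoxin had positive fold changes. Those for the Rieske protein and for ferredoxin-NADP reductase had negative ones. Related ferredoxin and reductase genes outside the members, given below, did not all share these signs. PETE1, the minor plastocyanin gene, had 1466, 1532 and 1695 normalized counts in wild-type replicates 1, 2 and 3 and 2303, 2185 and 2339 in replicates 1, 2 and 3 labelled bbx14-1. The lowest labelled library lay well above the highest wild-type one, and the mean was 1565 ± 118 across the wild-type libraries and 2275 ± 80.5 across the labelled ones (SD, n = 3 per group). PETE1 showed a log2 difference of 0.54 (SE 0.090, limma, Benjamini-Hochberg adjusted p = 0.000471), the largest fold change among the members. The major plastocyanin gene PETE2 (AT1G20340) had 23638, 26307 and 27516 normalized counts in the wild-type libraries and 29568, 34570.2 and 31160.1 in those labelled bbx14-1, again without overlap (0.30, 95% interval 0.086 to 0.51, limma adjusted p = 0.106). The major leaf ferredoxin gene FD2 (AT1G60950) had 12397, 15178 and 14824 normalized counts in the wild-type libraries and 15642, 16747 and 18653 in those labelled bbx14-1, with no overlap (0.27, limma adjusted p = 0.141). FD1 (AT1G10960) had 1236, 1712 and 1656 normalized counts in the wild-type libraries and 1538, 1716 and 2158 in those labelled bbx14-1, with overlapping groups (0.23, limma adjusted p = 0.345).

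The leaf reductase genes FNR1 (AT5G66190) and FNR2 (AT1G20020) were the 2 members in which every library labelled bbx14-1 lay below every wild-type library. FNR1 had 6174, 5944 and 7350.5 normalized counts in the wild-type libraries and 5266, 5275 and 5715 in those labelled bbx14-1. FNR2 had 9863, 8357 and 9692 normalized counts in the wild-type libraries and 7907, 7867 and 7707 in those labelled bbx14-1. Their log2 differences were -0.25 (95% interval -0.44 to -0.066) and -0.25 (95% interval -0.43 to -0.063), and neither passed the test over all genes (limma adjusted p = 0.127 and 0.128). PETC (AT4G03280), the Rieske iron-sulfur protein of the cytochrome b6f complex, was at -0.095 with overlapping groups (95% interval -0.28 to 0.087). The median of the 7 carriers moved from 0.23 to 0.085 without wild-type replicate 1 and to 0.097 without bbx14-1 replicate 3.

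Of the 3 nuclear ATP synthase genes, ATPD (AT4G09650; TAIR10.1 chromosome 4, 6100714 to 6101864, plus strand) alone was called. It encodes the delta subunit, which joins the catalytic head to the peripheral stalk. ATPD had 5263, 6122 and 6827 normalized counts in wild-type replicates 1, 2 and 3 and 8267, 9379 and 8313 in replicates 1, 2 and 3 labelled bbx14-1. All 3 libraries labelled bbx14-1 exceeded wild type, with replicate 2 the highest. Its mean was 6071 ± 783 across the wild-type libraries and 8653 ± 629 across the labelled ones (SD, n = 3 per group), a log2 difference of 0.52 (SE 0.097, limma, Benjamini-Hochberg adjusted p = 0.00169). ATPC1 (AT4G04640), the gamma subunit of the rotating shaft, had 15325, 15965 and 16576 normalized counts in the wild-type libraries and 16323, 17935 and 16939.6 in those labelled bbx14-1 (0.097, 95% interval -0.090 to 0.28). ATPG (AT4G32260), which encodes a subunit of the peripheral stalk and is listed as PDE334 in RefSeq, had 9562, 10422 and 9957 normalized counts in the wild-type libraries and 8781, 8294 and 10726 in those labelled bbx14-1 (-0.11, 95% interval -0.31 to 0.084). In ATPC1 and ATPG the groups overlapped.

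The 5 calls rest on a variance estimate that limma shares between genes of like level. Without that trend no member was called by limma (8 higher and 0 lower at an unadjusted p under 0.05), the adjusted p of the 5 genes ran from 0.141 to 0.262, and 0.0684% of all genes tested were called higher. PSAH2, PETE1 and ATPD kept their calls in each of the other 14 settings. With bbx14-1 replicate 3 left out 6 members were called higher, against 1.83% of all genes. Leaving out wild-type replicate 1 gave 3 members against 1.48%, and leaving out bbx14-1 replicate 2 gave 4 against 1.53%.

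Several proteins are encoded by paralogue pairs, and reads must tell the copies apart for their counts to be separate. Over the 8 pairs, coding sequences were 74.6% to 88.0% identical in global alignments, and the longest identical run was 17 to 35 bases. No 50-base window of any member's exons occurred elsewhere in the TAIR10.1 genome. The coding stretches around the longest aligned identical run are shown for the 3 pairs that hold a called gene, from RefSeq TAIR10.1, 5′ to 3′, with the bases that differ from the paralogue in capitals. The PSAH stretches cover bases 111 to 200 of both coding sequences.
PSAH1: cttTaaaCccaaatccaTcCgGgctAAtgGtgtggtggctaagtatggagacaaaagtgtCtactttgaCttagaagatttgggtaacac
PSAH2: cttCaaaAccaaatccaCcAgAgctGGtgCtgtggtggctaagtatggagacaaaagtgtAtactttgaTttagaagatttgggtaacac
The PSAD stretches cover coding bases 405 to 494 of PSAD1 and 393 to 482 of PSAD2.
PSAD1: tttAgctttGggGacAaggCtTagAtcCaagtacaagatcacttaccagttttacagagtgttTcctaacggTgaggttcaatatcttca
PSAD2: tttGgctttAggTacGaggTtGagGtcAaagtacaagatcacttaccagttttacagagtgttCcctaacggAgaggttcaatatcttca
The PETE stretches cover coding bases 351 to 440 of PETE1 and 231 to 320 of PETE2.
PETE1: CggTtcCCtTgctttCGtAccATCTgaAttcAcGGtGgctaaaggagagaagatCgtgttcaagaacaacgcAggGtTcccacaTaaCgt
PETE2: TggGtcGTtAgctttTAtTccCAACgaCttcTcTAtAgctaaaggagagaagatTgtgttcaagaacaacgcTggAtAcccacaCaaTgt
Within these 90 bases, the PSAH and PSAD pairs differed at 10 positions each and the PETE pair at 23.

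A call in one copy and not in the other does not show that the copies differ, so the log2 ratio of each pair was compared between groups. The exact permutation test used for this cannot give a p below 0.1 with 3 libraries against 3, so no pair could pass it. In the PSAH, PETE and PSBO pairs the ranges were separate, each by a narrow margin. PSAH1 made up 48.3%, 50.1% and 45.7% of the pair's normalized counts in the wild-type libraries and 41.9%, 40.2% and 45.3% in those labelled bbx14-1. The log2 ratio of PSAH1 to PSAH2 changed by -0.33 (exact two-sided permutation p = 0.1, adjusted over the 8 pairs 0.267, n = 3 per group). In the plastocyanin pair the minor gene PETE1 held 5.84%, 5.50% and 5.80% of the counts in wild type and 7.23%, 5.94% and 6.98% in the libraries labelled bbx14-1. This was a log2 ratio difference of 0.24 (exact two-sided permutation p = 0.1, adjusted over the 8 pairs 0.267, n = 3 per group). In the PSBO pair, PSBO1 held 85.2%, 83.5% and 83.9% against 83.3%, 81.2% and 82.2%, a log2 ratio difference of -0.20 (exact two-sided permutation p = 0.1, adjusted over the 8 pairs 0.267, n = 3 per group). The other 5 pairs overlapped between groups. Their log2 ratio differences were 0.27 for PSAE1/PSAE2, -0.12 for PSAD1/PSAD2, -0.036 for FD1/FD2, -0.0095 for PSBQ1/PSBQ2 and -0.0094 for FNR1/FNR2. The exact p of these 5 ran from 0.3 to 1.0 by permutation.

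**Figure D3:**
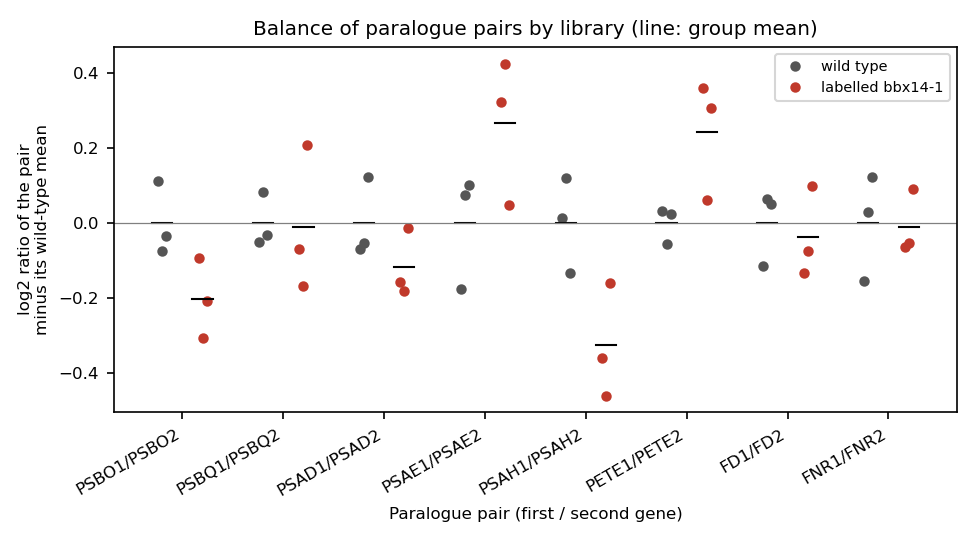
Log2 ratio of the first to the second gene of each of the 8 paralogue pairs, by library, after subtraction of the pair's wild-type mean; short lines are group means of 3 libraries. The PSBO, PSAH and PETE pairs have no overlap between groups.

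Levels were compared between genes per kilobase of annotated exon, on the scale of normalized counts in wild type. PSBR was highest at 76006 ± 7846 (SD, n = 3), followed by PSBO1 at 38472 ± 1237 and PSBW at 37485 ± 3212, and PSBO1 and PSBW did not differ beyond their spread. The lowest were PSB28 at 829 ± 53.9, PETE1 at 1493 ± 113 and FD1 at 1797 ± 305. In 33 of the 35 genes the mean count ranked among the 1000 highest of those tested, and the exceptions were FD1 and PSB28. Across the 35 genes the fold change did not follow the level (Pearson r = -0.038, Spearman rho = 0.0064, a description over genes of the same libraries). The members together took 4.355%, 4.501% and 4.827% of nuclear normalized counts in the wild-type libraries and 5.003%, 4.900% and 5.162% in those labelled bbx14-1. The ranges of that share did not overlap.

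Members tended to be high or low in the same libraries. In bbx14-1 replicate 3, the median member stood 0.29 above its wild-type mean on the log2 scale, against 0.14 and 0.13 in replicates 1 and 2. Of the 35 members, 22 had their highest value of that group in replicate 3 (against 35.1% of all genes tested). Wild-type replicate 1 stood at -0.10, against 0.030 and 0.083 in replicates 2 and 3, and 30 members had their lowest wild-type value there (against 32.1%). That library was the highest of all 6 for the seed reserve genes CRA1, CRC, OLEO1, OLEO2 and MLS. CRA1 and CRC had 254 and 276 normalized counts there, against 42.7 and 70.3 in wild-type replicate 2. CRB and ICL of the same list went the other way, with 13.5 and 1934 there against 15.1 and 2414 in wild-type replicate 2. The part of these differences in the members' values was not tested. Replicate 3 labelled bbx14-1 also had the lowest plastid share of reads, as given above, and the part of that share in the members' values was not tested. Photosystem II genes stood at 0.13, 0.096 and 0.32 in replicates 1, 2 and 3. Photosystem I genes stood at 0.18, 0.14 and 0.30.

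**Figure D4:**
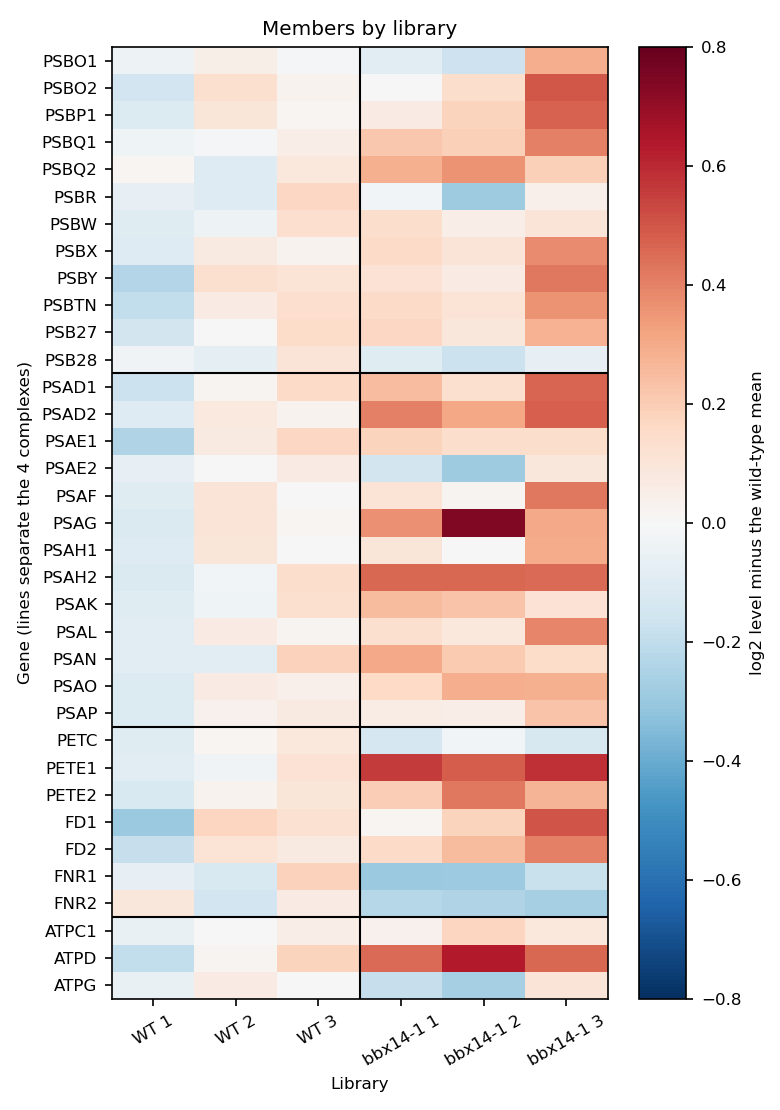
Log2 level of each member minus its wild-type mean, by library (columns; WT is wild type), with lines between the complexes and between the groups. Replicate 3 labelled bbx14-1 is the reddest column for most photosystem genes, whereas PSAH2, PETE1 and ATPD are red and FNR1 and FNR2 blue in all 3 labelled libraries.

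Upstream sequence is shown for the PSAH and plastocyanin pairs, in each of which one copy was called and the other was not. The PSAD pair, also of that kind, was searched but is not printed: PSAD1 held an I-box and PSAD2 none of the motifs. The 250 bases before each annotated start were searched on both strands for CACGTG (the G-box, bound by light-signalling factors), GATAAG (the I-box), CCAATC (a motif linked to GLK factors), AAAATATCT (the evening element) and TATAAA. No match overlapped another. The G-box was found in 7 of the 35 members (20%) and in 6.49% of 27443 nuclear protein-coding genes. The I-box was in 9 members and 12.3% of all, CCAATC in 5 and 10.2%, the evening element in 1 and 2.36%, and TATAAA in 18 and 47.3%. Of the 5 called genes, PSAH2 and ATPD held a G-box, and the other 5 members with one were PSBQ1, PSBQ2, PSBTN, PSB28 and PSAE2. These are matches of letters only. The bases printed run up to the annotated start and leave out those that another annotated gene covers, with the G-box, I-box and CCAATC in capitals (an I-box on the other strand reads CTTATC, and PSAH1 and PETE1 hold none of the 3). They are chr1:19454766-19454797 (plus strand), chr3:5469595-5469844, chr1:28554931-28555033 and chr1:7043393-7043627 (minus strand) in TAIR10.1.
PSAH2: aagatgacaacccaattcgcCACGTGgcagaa
PSAH1: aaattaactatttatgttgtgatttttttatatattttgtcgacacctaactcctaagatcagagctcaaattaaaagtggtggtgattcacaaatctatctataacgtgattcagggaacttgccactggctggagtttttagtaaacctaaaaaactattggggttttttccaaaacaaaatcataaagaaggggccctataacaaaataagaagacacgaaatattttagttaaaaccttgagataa
PETE1: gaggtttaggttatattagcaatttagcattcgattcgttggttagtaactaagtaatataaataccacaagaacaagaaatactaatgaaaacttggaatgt
PETE2: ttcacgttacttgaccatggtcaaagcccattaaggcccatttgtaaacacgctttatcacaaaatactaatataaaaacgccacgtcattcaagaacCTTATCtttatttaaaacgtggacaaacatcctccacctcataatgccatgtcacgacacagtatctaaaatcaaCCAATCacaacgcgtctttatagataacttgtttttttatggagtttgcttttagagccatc
PSAH2 is short because only 32 bases separate its start from that of CURT1C, which is transcribed in the opposite direction. A second G-box and an I-box lie farther upstream, within CURT1C. CURT1C encodes a thylakoid curvature protein. It had 2106, 2349 and 2368 normalized counts in the wild-type libraries and 2601, 3025 and 2812 in those labelled bbx14-1, with no overlap (0.31, limma adjusted p = 0.0509), and was singled out after its values were seen.

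Genes that act on or in the same complexes without being among these members were looked at beside them. Of 26 nuclear assembly factors of the photosystems, the cytochrome b6f complex and the ATP synthase, all 26 were tested and 0 were called by limma or by voom (0 higher and 3 lower at an unadjusted p under 0.05). Their fold changes leaned the other way from those of the subunits, with 21 of 26 below 0 (against 49.5% of all genes tested), a median of -0.12, and 6 of 26 with every labelled library below wild type (against 10.6%). The lean of the assembly factors was to the negative side in all 15 alternative settings, and that of the subunits to the positive side. The most abundant factors were ALB3, which inserts thylakoid membrane proteins, and HCF173, needed to translate the D1 protein, at -0.082 and -0.063 (limma adjusted p = 0.702 and 0.786). No test of the difference between the 2 lists was made.

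Among 27 related nuclear genes, 24 were tested. The 27 include other ferredoxins and reductases, regulators of cyclic flow and state transitions, and thylakoid curvature proteins. By limma 1 was called higher and 1 lower, against 2.51% and 2.14% of all genes tested (3 higher and 1 lower at an unadjusted p under 0.05). Voom called 2 higher and 1 lower. Of the 24, 10 had a positive fold change and 14 a negative one. In 7 every labelled library lay above wild type and in 1 below, against 10.4% and 10.6% of all genes tested. CURT1A, a relative of PSAP, had 3798, 4309.6 and 4603 normalized counts in the wild-type libraries and 5135, 5828 and 5084 in those labelled bbx14-1. The groups did not overlap, and the gene rose by 0.34 (limma adjusted p = 0.0313). TAP38, the phosphatase that removes phosphate from light-harvesting proteins and so acts opposite to the kinase STN7 in state transitions, had 2254, 2143 and 2132 normalized counts in the wild-type libraries and 1629, 1593 and 1851 in those labelled bbx14-1. TAP38 fell by 0.37 on the log2 scale (limma adjusted p = 0.0163), with no overlap. Neither call held without the variance trend (limma adjusted p = 0.306 and 0.239), when wild-type replicate 1 was left out (limma adjusted p = 0.236 and 0.102), nor on leaving out bbx14-1 replicate 1 (0.05002 and 0.0666) or bbx14-1 replicate 2 (0.152 and 0.0743), and that of CURT1A was also lost without wild-type replicate 2 (0.0645). STN7 itself was at -0.18 with overlapping groups (limma adjusted p = 0.374). The reductase genes RFNR1 and RFNR2 were at 0.39 and 0.27, with every labelled library above wild type (limma adjusted p = 0.309 and 0.369). Of the other ferredoxin genes, FD3 was at -0.17 and FDC2 at 0.21, with overlap (limma adjusted p = 0.551 and 0.514). PETM, a cytochrome b6f subunit outside the rule, was at -0.23 with overlap (limma adjusted p = 0.361). FD4, FDC1 and ATPC2 are listed at 0 in all 6 libraries. The 10 nuclear genes for mitochondrial counterparts (ATP synthase, cytochrome c and Rieske proteins) had 0 calls by limma and by voom (1 higher and 0 lower at an unadjusted p under 0.05) and a median of 0.081. Of these 10, 6 had a positive fold change (against 50.5% of all genes tested), and 9 had one under quantile normalization. In 3 every labelled library lay above wild type and in 0 below, against 10.4% and 10.6% of all genes tested. Separation in that direction was thus not confined to the members. The most abundant of the 10, AT5G08670 and AT5G08690 for the beta subunit, were at -0.033 and -0.013 (limma adjusted p = 0.902 and 0.969), and these near-identical copies may share reads.

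**Figure D5:**
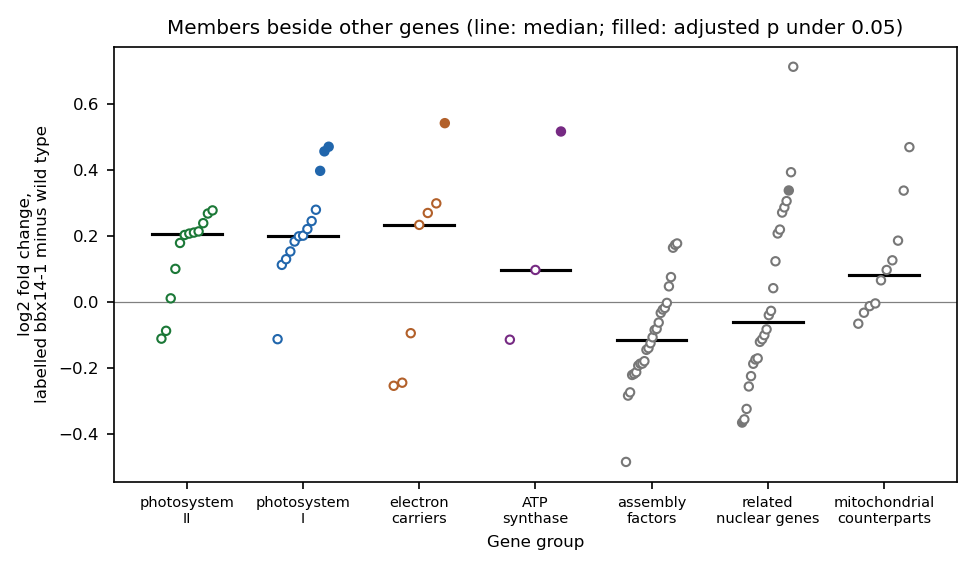
Log2 fold change (labelled bbx14-1 minus wild type) of the members by complex and of the 3 other gene groups, sorted within each group; lines are medians and filled points passed the test. The subunit groups have medians of 0.097 to 0.23, and the assembly factors one of -0.12.

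Of the members, 11 share exon bases with another annotated gene, 9 of them with a gene on the opposite strand, among them the called genes PSAG and PSAH2. PSAD2 overlaps a gene on its own strand. Of the 13 partners, 10 were tested and 0 were called (limma). The libraries were strand-specific, but the sources used here do not say how the counting treated strand. The same-strand partner of FD1, AT1G10950, had a mean of 2613 in wild type, above FD1 itself, so the split of reads between them leaves the FD1 level uncertain. The same-strand partner of PSAD2 had 640.2 and 574. The partner of PSAH2 had 40.0 to 59.7 normalized counts and that of PSAG is listed at 0, far below the members' own values.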

How the data were processed

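Per the file name and the submitters' processing notes, the authors deposited counts per gene divided by a DESeq2 size factor for each library; the notes also name Trimmomatic, FastQC, TopHat2 2.1.1 and featureCounts, with the build TAIR10. Libraries were made from total RNA after removal of ribosomal RNA, with random primers and dUTP strand marking, per the labels' protocols. The sources used here do not give the annotation release, the strand setting or the handling of multiply mapped reads. Dividing by the smallest non-zero value of each library gave whole numbers (tolerance 0.01), so whole reads were recovered for 100% of values.

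Genes with a mean of at least 10 were fitted with limma (version 3.58.1, under R version 4.3.3), taking log2(normalized count + 1) with a variance trend. This scale understates changes of low genes. P-values were two-sided. The rule for the members uses no measured value, but the choice of this gene set, the lists and the rule for named genes were made with earlier results of these data known. All members are accounted for. Values per library are given for called members, for the highest and lowest fold change of each complex and for paralogue pairs. Other lists give up to 4 called genes or the 2 most abundant. STN7, PETM and the related reductase and ferredoxin genes were added after their values were seen. Pairs were compared with exact permutation tests. The fit was tested on simulated data in which the variance of a gene depended only on its mean. That test therefore cannot show whether the variance trend suits these libraries. No libraries of a group agreed within sampling noise (lowest chi-square per degree of freedom 7.78). Replicate numbers were not treated as pairs. The planned tests with edgeR and DESeq2 were not run, and voom on recovered reads, chosen after seeing the data, took their place. Symbols, exons and sequences came from RefSeq TAIR10.1, matched by locus identifier.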

Additional observations from a re-analysis of the deposited data

How the results depend on the processing

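Over 15 alternative settings, 532 of 555 single-gene values kept their direction and their side of the threshold, 17 lost a call, 1 gained one and 5 changed sign. Most of the 555 had no call to lose, and all 17 losses fell on the 5 called members, CURT1A and TAP38. Of the 15 settings, PSAH2, PETE1 and ATPD kept their calls in 14, PSAD2 in 13, PSAG in 12, TAP38 in 11 and CURT1A in 10. Without the variance trend limma called 13 genes higher and 15 lower in the whole table, against 477 and 406, and 0 of the members. Leaving out 1 library gave 282 to 437 genes called higher, 247 to 406 called lower and 3 to 6 members called higher. The member counts were 3 without wild-type replicate 1, 4 without bbx14-1 replicate 2 and 6 without bbx14-1 replicate 3. The median log2 fold change with 1 library left out was 0.085 to 0.33 for the electron carriers, 0.11 to 0.24 for photosystem II and 0.16 to 0.26 for photosystem I. Under quantile normalization the ATP synthase median was -0.018, PSBO1 -0.026 and ATPC1 -0.018. The median of all members was 0.14 under that setting, against 0.20 in the main fit, with 26 members above 0 against 28. By complex it was 0.14 for photosystem II, 0.13 for photosystem I and 0.16 for the electron carriers. With 1 library left out, PSBO1 ran from -0.13 to 0.099, PSBR from -0.15 to 0.010, and the log2 ratio differences of PSBQ1/PSBQ2, FD1/FD2 and FNR1/FNR2 from -0.12 to 0.069, -0.10 to 0.013 and -0.086 to 0.052. The cause was not tested. With the replicate block, 5 members were called higher and 0 lower, and 487 genes higher and 428 lower in the whole table. Same-numbered libraries did not deviate together (correlations of 0.04, 0.02 and -0.03). No scaling moved the median of all genes by more than 0.01. Both planned count tests, edgeR and DESeq2, were not run. With 3 libraries per group, permutation tests cannot reach 0.05.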
